A study of Homo sapiens with 3 samples.

Results

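The ABC transporter genes were taken as all protein-coding genes whose symbol is ABC, a subfamily letter from A to G and a number. There were 45 such genes among 19951 protein-coding genes and 58735 annotated genes in the count tables. The study sequenced RNA from 3 established human prostate cancer cell lines, with 1 library for each line, and its stated purpose was to compare the LNCAP line, put in the class ADPC, with the PC3 and DU145 lines, put in the class CRPC (castration-resistant prostate cancer, per the series' title). LNCAP comes from a lymph node metastasis and responds to androgen, PC3 comes from a bone metastasis, and DU145 comes from a brain metastasis. No line carried a genetic change or drug treatment named in the labels. The labels list 3 media (1640, EMEM and F12K) for the 3 lines without saying which line grew in which. With 1 library for each line, culture medium and line could not be told apart even if the labels said so. All lines grew with fetal bovine serum at 37 °C.

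ABC (ATP-binding cassette) proteins use ATP to drive a cycle of binding and release. Most move a substrate across a membrane: many ABCC members, with ABCB1 and ABCG2, export drugs, conjugates or cyclic nucleotides, many ABCA and ABCG members move cholesterol and phospholipids, and most ABCD members carry fatty acids into peroxisomes. ABCE1 and the ABCF proteins have no membrane part and act on ribosomes. In prostate cancer the family is mostly known for drug efflux, and ABCC4 is known as a gene that androgen raises in prostate epithelium.

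The libraries held 15319045 to 15878546 counts. Levels are given as CPM, counts per 1000000 counts of the library after TMM scaling, whose factors lay between 0.987 and 1.016. Between genes, levels are compared only as TPM, counts divided by the listed exon length and scaled to sum to 1000000. Ratios between libraries carry an exact 95% Clopper-Pearson interval that covers counting error only. With 1 library a line there was no replicate check, so each ratio compares 2 libraries and gives no p-value. Calls of 4-fold needed a ratio of 4 or more in either direction, with 0.5 counts added to each library, and an interval that excluded 1. It was tested when it reached 1 CPM in at least 1 library. That left 18025 genes and 35 of the 45 ABC genes. ABCA6, ABCA9, ABCB1, ABCB4, ABCB11, ABCC9, ABCC12, ABCD2, ABCG5 and ABCG8 stayed under 1 CPM in every library. A gene that passed only through a high library had to differ, so the counts of called genes below describe the libraries and are not support for a difference of the family.

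The labelled cell type was checked on marker genes. Luminal prostate markers summed to 5279 CPM in LNCAP against 397 in PC3 and 18.3 in DU145. KLK3, which encodes prostate-specific antigen, was at 2271 CPM in LNCAP and had no count in PC3 or DU145, and HOXB13 was at 329, 387 and 0 CPM. The epithelial keratins KRT8 and KRT18 summed to 676, 447 and 1539 CPM, and the basal markers to 5.76, 0.0654 and 0 CPM. Markers of stroma, endothelium and blood summed to 12.5, 36.9 and 1.72 CPM, with 3 of 13 at 0 in every library. The highest of them were PECAM1 at 20.1 CPM and COL3A1 at 15.6 CPM in PC3, and VWF at 9.21 CPM in LNCAP. Mitochondrially encoded genes took 7.97, 4.35 and 5.6% of the counts. These values differed between the same libraries as the ABC genes, and their part in the ratios below was not tested. In bulk RNA, fewer cells with a transcript and less of it per cell cannot be told apart.

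RefSeq start-site windows, from 250 bases before to 50 after a start on GRCh38.p14, were found for 35 of the 45 genes. The 4 windows that follow are shown because results below turn on these genes and their windows cover the range of CpG content. They were chosen after the levels were known. Each runs 5′ to 3′ on the gene's strand, with CpG dinucleotides in capitals. ABCC4 (chr13:95301402-95301701, minus strand) has 47 CpG, the most of any ABC gene with a window, and ABCA1 (chr9:104928106-104928405, minus strand) has 23. ABCA12 (chr2:215138577-215138876, minus strand) and ABCC2 (chr10:99782390-99782689, plus strand) have 1 each.
ABCC4: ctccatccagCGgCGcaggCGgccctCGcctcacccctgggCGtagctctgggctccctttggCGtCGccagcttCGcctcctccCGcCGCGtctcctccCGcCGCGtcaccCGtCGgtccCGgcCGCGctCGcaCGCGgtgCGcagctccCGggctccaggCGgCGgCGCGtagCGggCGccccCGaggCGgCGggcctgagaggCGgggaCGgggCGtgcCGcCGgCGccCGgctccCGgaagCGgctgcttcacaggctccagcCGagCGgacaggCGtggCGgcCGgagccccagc
ABCA1: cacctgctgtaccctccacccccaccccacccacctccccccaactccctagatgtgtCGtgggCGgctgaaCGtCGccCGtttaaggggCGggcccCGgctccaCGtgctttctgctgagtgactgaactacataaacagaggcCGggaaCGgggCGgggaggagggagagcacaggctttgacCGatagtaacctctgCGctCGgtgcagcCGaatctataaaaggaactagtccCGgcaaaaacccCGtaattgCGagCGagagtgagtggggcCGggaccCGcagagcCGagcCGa
ABCA12: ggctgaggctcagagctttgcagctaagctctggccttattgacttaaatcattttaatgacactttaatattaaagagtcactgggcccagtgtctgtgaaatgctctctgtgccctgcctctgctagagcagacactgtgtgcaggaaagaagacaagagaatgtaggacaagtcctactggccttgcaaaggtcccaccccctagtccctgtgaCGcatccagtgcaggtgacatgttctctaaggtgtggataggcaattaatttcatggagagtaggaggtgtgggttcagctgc
ABCC2: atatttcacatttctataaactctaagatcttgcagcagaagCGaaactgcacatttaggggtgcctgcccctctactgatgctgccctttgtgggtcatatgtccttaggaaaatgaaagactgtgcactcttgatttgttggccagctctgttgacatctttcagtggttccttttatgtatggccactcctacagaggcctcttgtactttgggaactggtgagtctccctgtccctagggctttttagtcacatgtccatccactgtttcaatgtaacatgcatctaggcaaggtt

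The 18 ABC genes with a window that reached 1 CPM in all 3 libraries had between 15 and 47 CpG in it, with a median of 29. The 8 tested genes that fell under 1 CPM in at least 1 library had between 1 and 26, with a median of 3. The 9 genes that were not tested had between 1 and 18, with a median of 5. Over all 35116 windows in the table the median was 14. Among ABC genes with a window, the steadily detected ones and the rest thus overlapped only between 15 and 26 CpG. There ABCC6 (25), ABCG4 (26) and ABCC9 (18) lay among the steadily detected genes. ABCA4, ABCA8, ABCB5, ABCC3, ABCC8 and ABCG1, tested but under 1 CPM in at least 1 library, had no window and are left out. Some genes in both groups had several windows, among them ABCG2 (5), ABCC11 (3), ABCA12 (2) and the steadily detected ABCB9 (3). Only the window nearest the annotated start was read, so the split rests on that choice, and the other windows were not tested. The same split was not made for all genes, so it cannot be read as a trait of the family. ABCC4 and ABCA12 were both far higher in LNCAP than in the other libraries and stood at opposite ends of the CpG range.

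**Figure D1:**
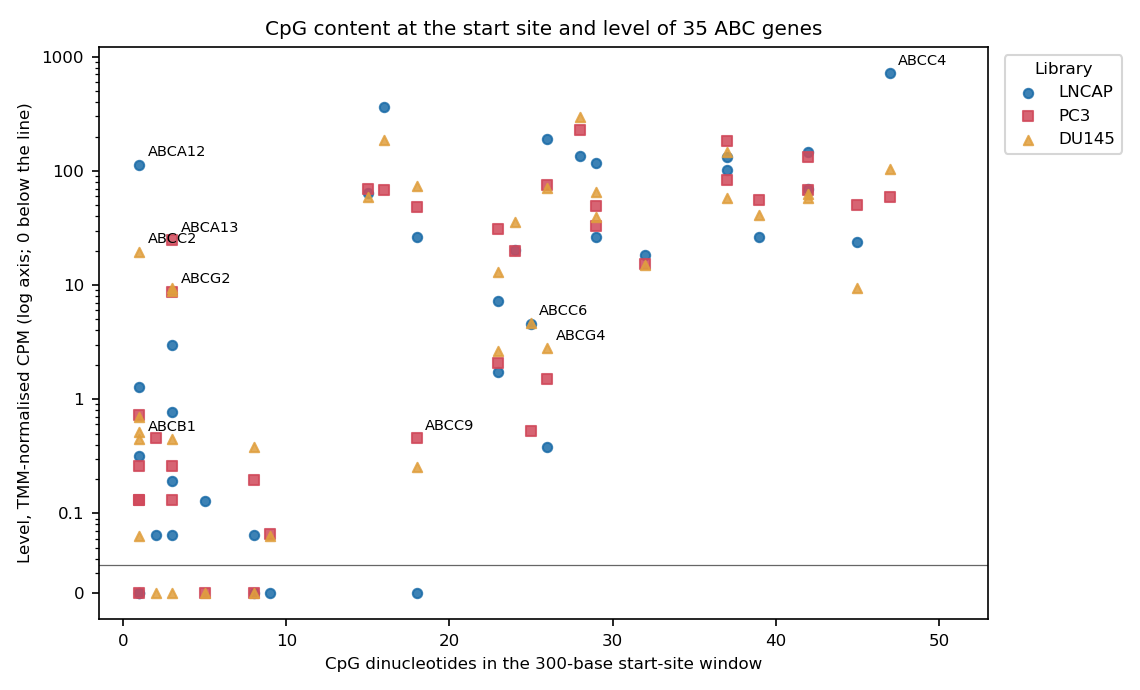
Number of CpG dinucleotides in the start-site window (x axis) against the level in each library (y axis, TMM-normalised CPM on a log axis, with counts of 0 below the line) for the 35 ABC genes with a window. Each gene is drawn 3 times, once for each library. Genes with 9 CpG or fewer include ABCA12 at 113 CPM in LNCAP and ABCC2 at 19.6 CPM in DU145, each under 1 CPM in the other libraries.

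Short motifs were searched in the windows on both strands. The GC box GGGCGG was in 17 of the 35 windows (48.6%, against 45% of all windows), TATAAA in 6 (17.1% against 11.5%), CCAAT in 6 (17.1% against 34.6%) and the E-box CACGTG in 6 (17.1% against 7.26%). TGACNNNGC, the core of the antioxidant response element, was in 8 (22.9% against 13.3%), and the AP-1 letters TGANTCA in 2 (5.71% against 7.71%). ABCA1 held the GC box, TATAAA and CACGTG. ABCC4 held TGACNNNGC and none of the others, and ABCA12 held none of the 6. A match here is a match of letters only.

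Comparing PC3 with LNCAP, 5 ABC genes were called 4-fold higher (14.3% of the 35, against 13% of all genes tested) and 8 were called lower (22.9%, against 13.3%). The higher genes were ABCA1, ABCA8, ABCA10, ABCA13 and ABCC3, and the lower ones were ABCA2, ABCA12, ABCB5, ABCC4, ABCC6, ABCC8, ABCC11 and ABCG2. The median log2 ratio of the ABC genes was -0.04, beside -0.01 for all genes. Fewer ABC genes than genes in general lay within 2-fold of each other, 12 of 35 (34.3%) beside 51.3%.

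Comparing DU145 with LNCAP, 5 were called higher (14.3%, against 13.7% of all genes) and 7 lower (20%, against 12.1%). ABCA1, ABCA13, ABCC2, ABCC3 and ABCG4 were the higher genes, and the lower ones included ABCA4, ABCA12, ABCB5, ABCC4, ABCC8 and ABCG1. The median log2 ratio was -0.27, beside -0.00 for all genes. Both of these comparisons use the same LNCAP library, so genes called in both are not independent.

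PC3 and DU145 lay closer to each other. In PC3 5 genes were called higher (14.3%, against 8.54%), among them ABCA5, ABCA8, ABCA10 and ABCG1, and ABCC2, ABCC6 and ABCG2 were called lower (8.57%, against 10.6%). The median log2 ratio was 0.04, beside 0.02, and 21 of 35 genes lay within 2-fold (60%, against 59.1%).

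In all, 19 of the 35 tested ABC genes were called in at least 1 pair of libraries, 54.3% beside 38.7% of all genes. Among the 21 ABC genes at 1 CPM or more in every library, 5 were called, among them ABCA1, ABCA2, ABCA5 and ABCC4, which is 23.8% beside 18.4% of all such genes. The other called genes were under 1 CPM in at least 1 library. By subfamily, calls in any pair covered 8 of 10 tested ABCA genes, 6 of 9 ABCC genes, 3 of 3 ABCG genes, 1 of 6 ABCB genes and none of the 4 ABCE and ABCF genes. LNCAP held the highest level for 16 of the 35 genes (45.7%, against 37% of all genes), PC3 for 10 (28.6%, against 31.9%) and DU145 for 9 (25.7%, against 31.2%). In 19 genes both steps of the order exceeded counting error, in 15 genes only 1 step did, and for ABCB8 neither did.

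**Figure D2:**
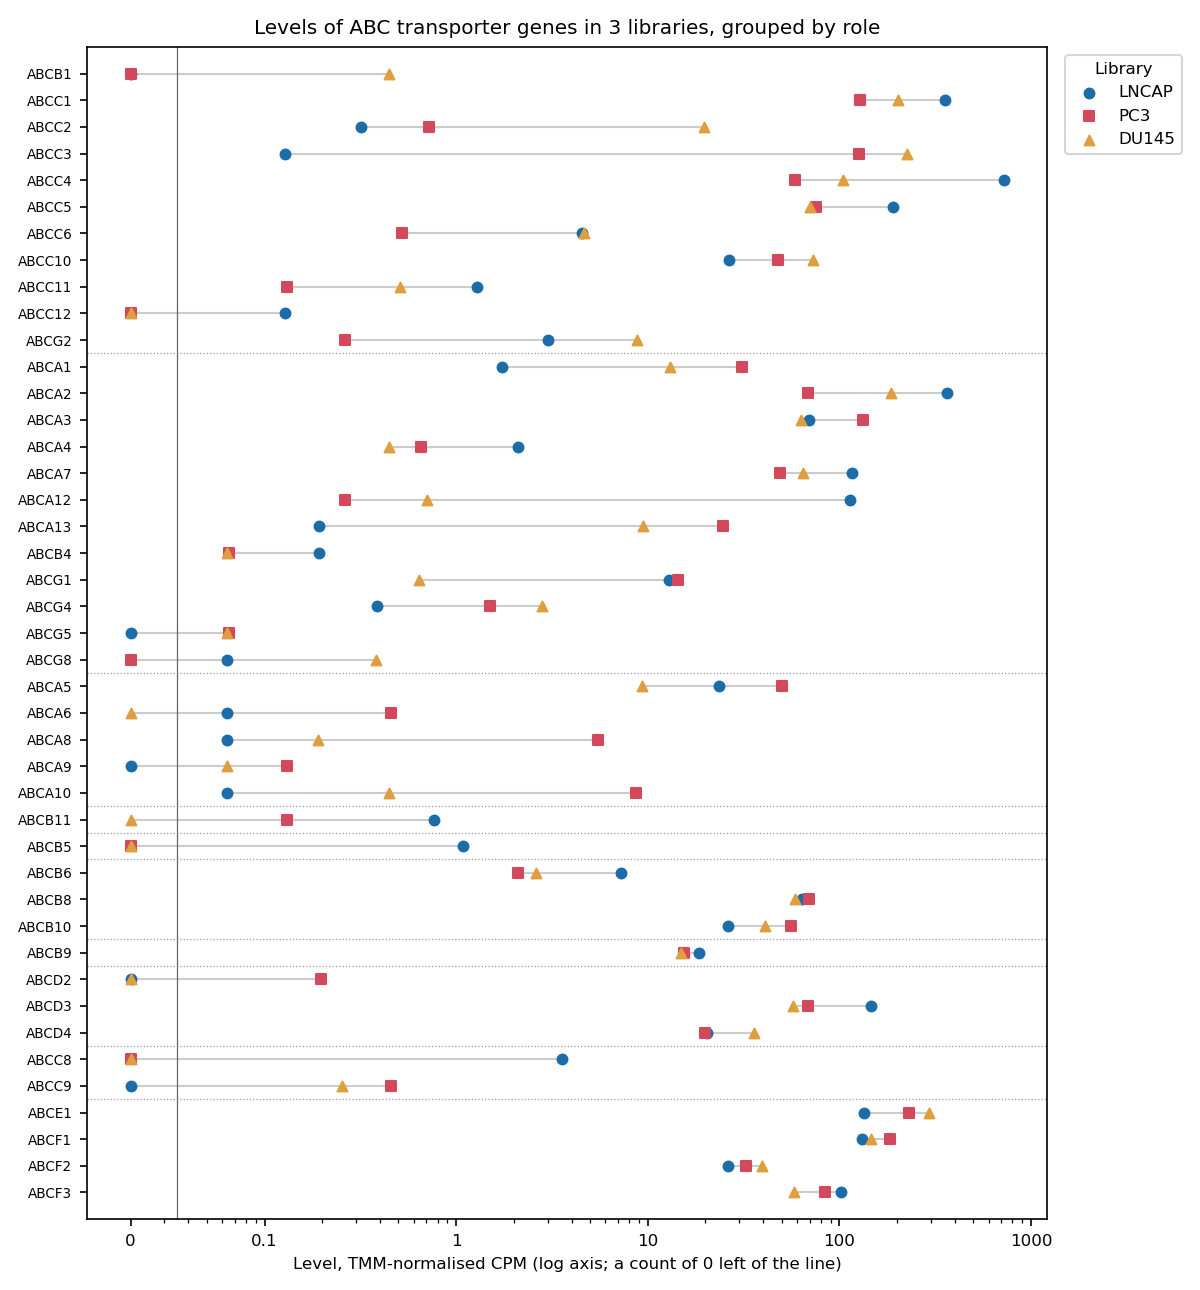
Level of the ABC genes reported here (rows, grouped by role, dotted lines between groups) in the 3 libraries (x axis, TMM-normalised CPM on a log axis, with counts of 0 left of the vertical line). Points are single libraries and the grey line joins the lowest and the highest. ABCC3 spans 0.128 to 226 CPM and ABCC4 spans 58.7 to 720 CPM, while ABCB8 and ABCB9 sit within 1.23-fold.

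The pumps for drugs and conjugates included ABCC3, whose ratio was the widest of any tested ABC gene with counts in every library. Of the 11 genes, 9 were tested and 6 were called in at least 1 pair, where 38.7% of all tested genes were. ABCC4 (chr13:95019829-95301475), which exports cyclic nucleotides, prostaglandins and steroid conjugates, was at 720 CPM in LNCAP against 58.7 in PC3 and 104 in DU145. LNCAP stood far above the others. The level was 12.3-fold lower in PC3 (95% interval 11.5 to 13.1) and 6.91-fold lower in DU145 (6.56 to 7.28). Per length, ABCC4 ranked first among the ABC genes in LNCAP at 294 TPM, 22.2% of the summed TPM of all 45. In PC3 it made up 2.72% and in DU145 4.73% of that sum.

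ABCC3 (chr17:50634777-50692252), an exporter of glucuronide conjugates and bile salts, showed the reverse. It had 2 counts in LNCAP (0.128 CPM), 1934 in PC3 (127 CPM) and 3539 in DU145 (226 CPM). The ratio to LNCAP was 989-fold in PC3 (interval 273 to 8172) and 1765-fold in DU145 (488 to 14583), and the width of both intervals came from the 2 LNCAP counts. PC3 was 1.79-fold below DU145 (1.69 to 1.89). At 50.9 TPM in PC3 and 85.6 TPM in DU145 it was among the more abundant ABC genes there, against 0.0469 TPM in LNCAP.

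ABCC2 (chr10:99782640-99852594), the canalicular exporter of bilirubin conjugates in liver, was highest in DU145. It was at 0.32 CPM in LNCAP against 0.72 in PC3 and 19.6 in DU145. DU145 was 61.3-fold above LNCAP (26 to 190), PC3 was 27.2-fold below DU145 (15 to 55.1), and LNCAP and PC3 were not apart (2.25-fold, 0.721 to 8.26). ABCG2 (chr4:88090264-88231322), the breast cancer resistance protein that exports many drugs and urate, was at 3.01 CPM in LNCAP against 0.262 in PC3 and 8.81 in DU145. Each step exceeded counting error, with PC3 11.5-fold below LNCAP (4.2 to 43.9) and 33.7-fold below DU145 (12.9 to 125) on 4 PC3 counts. DU145 was 2.93-fold above LNCAP (2.09 to 4.17).

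ABCC6, whose loss causes ectopic calcification, was at 4.54 CPM in LNCAP against 0.523 in PC3 and 4.66 in DU145. PC3 was 8.68-fold below LNCAP (4.17 to 20.9), and 8.9-fold below DU145 (4.29 to 21.4), while LNCAP and DU145 differed by 1.03-fold. Its transcribed pseudogenes ABCC6P1 (13, 0 and 10 counts) and ABCC6P2 (3, 2 and 16 counts) can share reads with it, so its level is uncertain. ABCC11, an exporter of apocrine gland secretions, was at 1.28, 0.131 and 0.511 CPM, with PC3 9.78-fold below LNCAP (2.38 to 86.3). That call, at a log2 ratio of -3.00, was lost with 5 counts added (-1.80) or with the deposited FPKM plus 0.1 (-1.21). LONP2, with 1041 to 2619 counts, overlaps 4.04% of the ABCC11 exons on the opposite strand, and whether counting used the strand is not given in the sources used here.

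The other detected pumps differed less. ABCC1 (chr16:15949577-16143074), the founding member of the multidrug resistance proteins and an exporter of glutathione conjugates, was at 357 CPM in LNCAP against 128 in PC3 and 203 in DU145. It was 2.8-fold lower in PC3 (2.66 to 2.95) and 1.76-fold lower in DU145 (1.69 to 1.84). At 166, 65.1 and 97.6 TPM it was among the 5 most abundant ABC genes by mean TPM. ABCC5 ranged from 70.4 to 191 CPM with LNCAP highest, and ABCC10 from 26.4 to 73 CPM with LNCAP lowest. ABCB1, the P-glycoprotein gene, had 0 counts in LNCAP and PC3 and 7 in DU145, where 0 counts allow up to 0.192 CPM in LNCAP and 0.196 CPM in PC3. ABCC12 had 2 counts in LNCAP and none elsewhere. Summed over the 11 pumps, the TPM was 535 in LNCAP, 192 in PC3 and 301 in DU145, which is 40.5, 19.9 and 32.4% of the ABC sum.

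**Figure D3:**
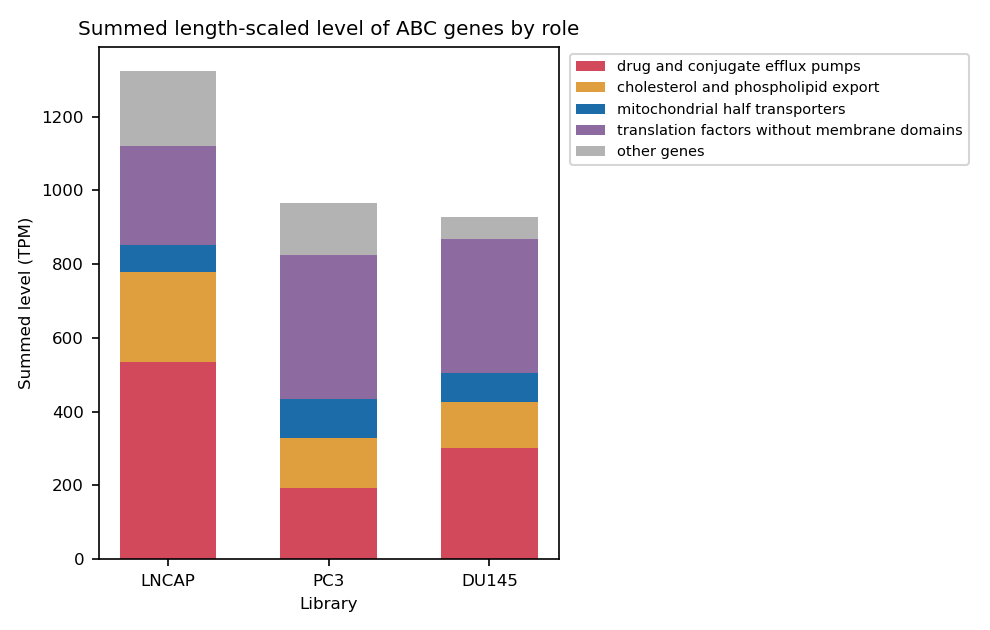
Summed TPM of the ABC genes in each library (y axis), stacked by role. Bars are single libraries without error bars. The total was 1323 TPM in LNCAP, 966 TPM in PC3 and 929 TPM in DU145, and the layer of pumps shrinks from 535 TPM in LNCAP to 192 TPM in PC3.

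Among the 12 genes for cholesterol and phospholipid export, 9 were tested and 7 were called in at least 1 pair, again beside 38.7% of all tested genes. ABCA1 (chr9:104781002-104928237) loads cholesterol onto apolipoprotein A-I and is a classic target of the LXR nuclear receptors. It was at 1.73 CPM in LNCAP against 30.9 in PC3 and 13 in DU145. PC3 was 17.9-fold above LNCAP (12.1 to 27.4) and DU145 was 7.54-fold above it (5.03 to 11.7), and PC3 also stood 2.37-fold above DU145. ABCG1 (chr21:42199689-42297244), which passes cholesterol to high density lipoprotein and is also an LXR target, had another order. It was at 12.9 CPM in LNCAP against 14.4 in PC3 and 0.638 in DU145. LNCAP and PC3 were not apart (1.11-fold, 0.916 to 1.36), while DU145 was 20.2-fold below LNCAP (10.8 to 42.9). ABCG4, a relative of ABCG1, was at 0.384, 1.5 and 2.81 CPM, with DU145 7.32-fold above LNCAP (3.11 to 21), a call that FPKM plus 0.1 ended (log2 1.77).

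ABCA12 (chr2:214931542-215138428), the lipid transporter of the skin barrier, was at 113 CPM in LNCAP against 0.262 in PC3 and 0.702 in DU145. LNCAP held 1761 counts against 4 and 11. PC3 was 430-fold below LNCAP (168 to 1582) and DU145 160-fold below (89.5 to 322), and PC3 and DU145 were not apart. ABCA13 (chr7:48171458-48647496), the longest member of the subfamily, was at 0.192 CPM in LNCAP against 24.7 in PC3 and 9.45 in DU145. It was 129-fold higher in PC3 (43.6 to 626) and 49.2-fold higher in DU145 (16.5 to 241) on 3 LNCAP counts. Per length its highest level was 5 TPM, in PC3.

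ABCA2 (chr9:137007227-137028922), a lysosomal lipid transporter, was at 365 CPM in LNCAP against 68.6 in PC3 and 185 in DU145. It was 5.31-fold lower in PC3 (4.97 to 5.68) and 1.97-fold lower in DU145 (1.88 to 2.06). Its levels of 112, 23.1 and 58.7 TPM made it the most abundant ABCA gene by mean TPM. ABCA4, the retinoid transporter of photoreceptors, was low at 2.11, 0.654 and 0.447 CPM, with DU145 4.73-fold below LNCAP (2.06 to 12.7). The log2 ratio of -2.16 became -1.67 with 5 counts added and -1.17 with FPKM plus 0.1, which ended the call. ABCA3, the surfactant lipid transporter, ranged from 63.1 to 132 CPM and ABCA7 from 49.1 to 117 CPM, and neither was called. ABCB4 had 1 to 3 counts in each library.

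ABCG5 and ABCG8 encode the partners of the sterol exporter of liver and gut, and lie head to head on chromosome 2. ABCG5 had 0, 1 and 1 counts and ABCG8 had 1, 0 and 6. Their start-site windows share 231 bases, read on opposite strands, with 9 CpG for ABCG5 (chr2:43838790-43839089, minus strand) and 8 for ABCG8 (chr2:43838721-43839020, plus strand). They are printed because RefSeq places the starts of these neighbouring partner genes within a shared stretch. The counted gene model of ABCG8 starts elsewhere, 7029 bases from the RefSeq start, and overlaps the ABCG5 model by 6924 bases.
ABCG5: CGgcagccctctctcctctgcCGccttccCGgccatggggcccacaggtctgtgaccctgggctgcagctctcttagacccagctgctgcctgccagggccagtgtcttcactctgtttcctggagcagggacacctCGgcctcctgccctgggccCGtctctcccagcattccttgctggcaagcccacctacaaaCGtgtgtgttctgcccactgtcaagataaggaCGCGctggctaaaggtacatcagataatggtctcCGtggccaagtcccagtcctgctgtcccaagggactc
ABCG8: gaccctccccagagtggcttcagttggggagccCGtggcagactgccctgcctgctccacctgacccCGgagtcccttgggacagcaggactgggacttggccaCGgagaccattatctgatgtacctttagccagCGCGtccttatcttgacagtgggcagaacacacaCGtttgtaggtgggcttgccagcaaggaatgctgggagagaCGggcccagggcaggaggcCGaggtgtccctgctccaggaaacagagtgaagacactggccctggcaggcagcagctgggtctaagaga

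The cluster ABCA8, ABCA9, ABCA6, ABCA10 and ABCA5 occupies chr17:68867292-69327244, all on the minus strand. Their substrates are poorly known. ABCA5 was detected in every library, at 23.6 CPM in LNCAP against 50.4 in PC3 and 9.38 in DU145, and PC3 was 5.38-fold above DU145 (4.5 to 6.46). ABCA8 was at 0.064, 5.5 and 0.191 CPM, which put PC3 28.7-fold above DU145 (9.49 to 142). ABCA10 was at 0.064, 8.7 and 0.447 CPM, which put PC3 19.5-fold above DU145 (9.19 to 49.4). Against the 1 LNCAP count of each gene, the PC3 ratios were 85.9-fold (15 to 3433) for ABCA8 and 136-fold (24 to 5413) for ABCA10. ABCA6 (1, 7 and 0 counts) and ABCA9 (0, 2 and 1 counts) between them in the cluster stayed under 1 CPM. PC3 thus held the highest count of all 5 genes, but for ABCA6 and ABCA9 it was not apart from the next highest library. ABCA10 and ABCA5 share 318 exon bases on the same strand, 3.78% of the ABCA10 exons, so their counts are not fully separate.

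**Figure D4:**
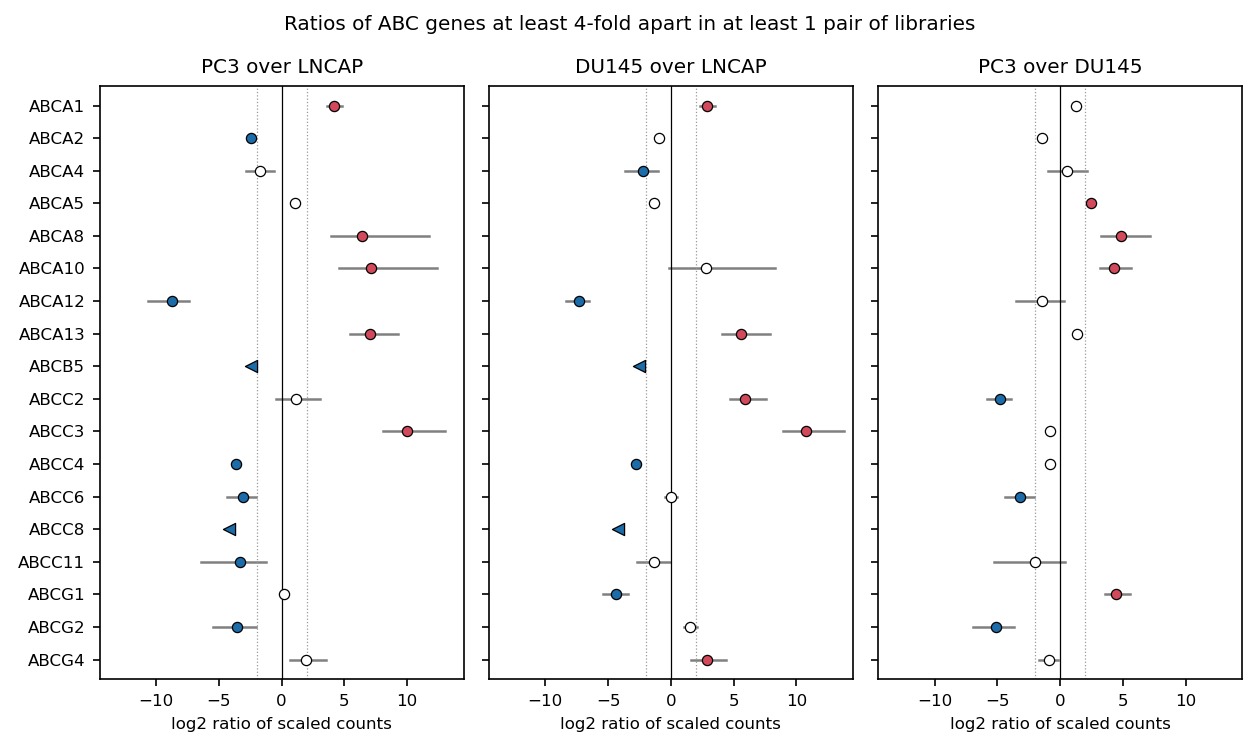
Log2 ratios of scaled counts (x axis) for ABC genes called in at least 1 pair of libraries, in 3 panels, one for each pair. Circles are ratios with 95% counting intervals as bars, triangles are bounds where a library had no count, filled symbols are calls, and dotted lines mark 4-fold. ABCC3 lies farthest right and ABCA12 farthest left in both comparisons with LNCAP.

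Of the 4 ABC genes of mitochondria, which serve haem, iron-sulphur cluster and related transport, none was called in any pair. The share called was 38.7% of all tested genes, and 18.4% of those at 1 CPM or more in every library. With only 4 genes, this does not set the group apart. ABCB8, part of a mitochondrial potassium channel complex, was at 58.8 to 69.5 CPM without any pair of neighbouring levels apart. Its highest level, in PC3, was 1.18-fold above its lowest, in DU145 (1.08 to 1.29). ABCB10, which red cell precursors need for haem synthesis, was at 26.3 CPM in LNCAP against 55.9 in PC3 and 40.8 in DU145. ABCB6 ranged from 2.09 to 7.23 CPM with LNCAP highest, and 54.7% of its exon bases are shared with another gene model on the same strand. ABCB9, the peptide transporter of lysosomes, was at 14.9 to 18.4 CPM. On the opposite strand AC026362.1, OGFOD2 and ARL6IP4 share 20.7, 12.5 and 12% of its exon bases. TAP1 and TAP2, the peptide transporters that load HLA class I and that belong to the same subfamily under other names, were at 54.9, 25.9 and 67.9 CPM and at 17.5, 35.3 and 57.8 CPM. Neither was called, and CFTR, the chloride channel of the ABCC subfamily, had 4 counts in LNCAP and none elsewhere.

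Of the ABCD genes, ABCD3 and ABCD4 were detected in every library and neither was called. ABCD3, which imports branched and long chain fatty acids, ranged from 57.4 to 146 CPM with LNCAP highest. ABCD4, which works in lysosomal release of vitamin B12, ranged from 19.8 to 35.8 CPM with DU145 highest, and ABCD2 had 3 counts in PC3 only.

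ABCC8 and ABCC9 encode the sulphonylurea receptors that regulate ATP-sensitive potassium channels. ABCC8 (chr11:17392498-17476879) had 56 counts in LNCAP (3.58 CPM) and none in PC3 or DU145. With 3 counts allowed per library for a count of 0, it was at least 18.3-fold lower in PC3 and at least 18.7-fold lower in DU145. With FPKM plus 0.1 both log2 ratios were -1.92 and neither was called. ABCC9 had 0, 7 and 4 counts. ABCB5 (chr7:20615207-20777038), known from melanoma and limbal stem cells, had 17 counts in LNCAP (1.09 CPM) and none elsewhere, at least 5.54-fold and 5.68-fold lower, and its calls too were lost with FPKM plus 0.1 (log2 -1.11 in both). ABCB11, the bile salt pump of liver, had 12, 2 and 0 counts.

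Of the 4 ABC genes whose proteins lack a membrane part, none was called in any pair. All 4 reached 1 CPM in every library, where 18.4% of all such genes were called. With only 4 genes, this does not set the group apart. ABCE1 (chr4:145097932-145129179), which splits ribosomes after termination, was at 135 CPM in LNCAP against 230 in PC3 and 294 in DU145. Its ratio to LNCAP was 1.71 in PC3 (1.62 to 1.8) and 2.18 in DU145 (2.07 to 2.3). ABCE1 had the highest mean level of all 45 genes, 130 TPM over the 3 libraries. On the opposite strand, ANAPC10 (46, 111 and 105 counts) overlaps 7.49% of the ABCE1 exons and OTUD4 (945, 2269 and 3176 counts) overlaps 4.41%. AC098588.1, with 0 counts in every library, overlaps 3.88%. Reads of these genes cannot be told apart there if strand was not used. ABCF1 (chr6:30571376-30597179), which binds eIF2 and ribosomes, was at 131, 183 and 146 CPM, and at 102, 156 and 118 TPM. ABCF2 ranged from 26.1 to 39.4 CPM and ABCF3 from 57.9 to 102 CPM. Another gene model on the same strand shares 45.8% of the ABCF2 exon bases. The 4 genes together held 20.3% of the ABC sum in LNCAP, 40.5% in PC3 and 39.2% in DU145, on sums of 269, 391 and 364 TPM.

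Genes that work with the ABC proteins were read from lists of partners. Of all genes tested, 13% were called higher and 13.3% lower in PC3 against LNCAP. These shares were 13.7 and 12.1% in DU145 against LNCAP, and 8.54 and 10.6% in PC3 against DU145. The lists are short, and their counts below were not tested against these shares. Of 17 tested genes of LXR, RXR and sterol handling (20 listed), PC3 against LNCAP gave 3 higher and 2 lower, DU145 against LNCAP gave 5 higher and none lower, and PC3 against DU145 gave 1 higher and 3 lower. PLTP, which transfers phospholipid between lipoproteins, was at 0.128, 74.8 and 1.34 CPM. APOE, a lipid acceptor for ABC exporters, was at 0.192, 1.11 and 12.1 CPM, and its neighbour APOC1 had 0, 8 and 95 counts. PLTP was thus highest in PC3, and both apolipoprotein genes were highest in DU145.

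Of 12 tested drug-sensing regulators (16 listed), 5 were higher in PC3 than in LNCAP and 3 were higher in DU145 than in LNCAP, with none lower. PC3 against DU145 gave 3 higher and 1 lower. PPARG, a nuclear receptor for lipids, was at 4.03, 152 and 19.5 CPM. AHR, the receptor for aryl hydrocarbons, was at 7.23, 111 and 21.7 CPM, and HIF1A, the hypoxia factor, at 216, 1182 and 720 CPM. These 3 named genes were highest in PC3 and lowest in LNCAP, but other called regulators of the list were highest in DU145.

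Of the organic anion carriers, which take up many substrates of the pumps, 6 of 11 were tested. The counts were 3 higher and 2 lower in PC3 against LNCAP, 3 higher and 1 lower in DU145 against LNCAP, and 3 higher and 2 lower in PC3 against DU145. SLCO2A1, a prostaglandin carrier, was at 1.6, 0 and 30.1 CPM. SLCO1B3, a liver carrier of bile salts and steroid conjugates, was at 0, 8.37 and 5.55 CPM, and SLCO5A1 at 18.6, 3.66 and 0 CPM. Of the SLC22 and MATE carriers 7 of 15 were tested, with none higher and 1 lower in PC3 against LNCAP, 1 higher and 1 lower in DU145 against LNCAP, and none higher and 2 lower in PC3 against DU145. SLC22A2, a carrier of organic cations, was at 15.9 CPM in LNCAP and had no count elsewhere, and SLC47A1, an exporter of organic cations, was at 0.192, 0.523 and 14.2 CPM. SLC22A3, another cation carrier, was at 4.93, 1.31 and 11.4 CPM.

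Among 18 genes of peroxisomal import and beta-oxidation, all tested, none was called higher than LNCAP in either line. PC3 had 3 lower and DU145 had 4 lower, and PC3 against DU145 gave none higher and 1 lower. ACSL1, which activates long chain fatty acids, was at 282, 30.9 and 14.4 CPM. SLC27A2, a very long chain acyl-CoA synthetase, was at 20.3, 1.83 and 15.9 CPM, and AMACR, a racemase for branched chain acids and a prostate cancer marker, at 46.6, 9.42 and 4.98 CPM. LNCAP held the highest level of these 3 named genes, as it did for ABCD3. Some uncalled genes of the list were instead highest in PC3 or DU145.

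Of 21 tested genes of haem and iron-sulphur biogenesis (23 listed), each comparison gave none higher and 1 lower. FECH, which inserts iron to complete haem, was at 350, 44.5 and 60.6 CPM and was the lower gene in both lines against LNCAP. SLC25A37, a mitochondrial iron carrier, was the lower gene in PC3 against DU145, at 76.5 and 331 CPM, with LNCAP at 204 CPM. None of 14 genes of ribosome recycling and release was called in any pair. All 14 reached 1 CPM in every library, where 18.4% of all such genes were called in any pair. With only 14 genes, this does not set the list apart. Of the pores that pair with ABCC8 and ABCC9, KCNJ8 had 0, 16 and 1 counts and was called higher in PC3 against both others, and KCNJ11 was at 6.4, 2.55 and 4.21 CPM and was not called.

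The class comparison set PC3 and DU145, as 2 libraries, against the LNCAP library. It has 1 residual degree of freedom, so the difference between PC3 and DU145 stands for the spread within the class. DESeq2 gave no adjusted p for ABCA4, ABCB5, ABCC8 and ABCC11, so its calls below cover only the other tested ABC genes. By edgeR's quasi-likelihood test with Benjamini-Hochberg adjustment over 18025 genes, no ABC gene and no gene at all passed 0.05 (0% of genes), and the smallest adjusted p of an ABC gene was 0.266, for ABCA12 and ABCC3. Unadjusted, 6 ABC genes were under 0.05 (ABCA1, ABCA12, ABCA13, ABCC3, ABCC4 and ABCC8), as were 1746 of all genes. DESeq2 called 5 ABC genes, where it called 8.78% of 14879 genes. These were ABCC3 (log2 10.43, adjusted p = 1.62e-13), ABCA12 (-7.87, 2.20e-12), ABCA13 (6.47, 0.000356), ABCC4 (-3.14, 0.000811) and ABCA1 (3.67, 0.0209). The call thus depended on the tool, and limma-voom called none.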

How the data were processed

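RNA was measured in 1 library for each of 3 lines. The authors deposited raw counts per gene, whole numbers, and FPKM per gene. Tools named, per the submitters' processing notes, were TopHat2 2.0.9 with Bowtie2 2.0.6, and Cuffdiff 2.1.1 with Cufflinks 2.1.1, with no role stated. The counting program, its strand setting and the build were not given in the sources used here. The 58735 gene IDs, starts and ends all matched GENCODE 29, so coordinates are on GRCh38. Levels and ratios used the counts, and the deposited FPKM served only as an alternative. TMM factors (edgeR 4.0.16 under R 4.3.3) came from the 18025 genes tested (1 CPM in any library). Intervals were conditional binomial (scipy 1.17.1). The class comparison used edgeR's quasi-likelihood fit, with DESeq2 1.42.0 and limma 3.58.1 (voom) as alternatives. The scripts were tested on simulated data. No column of another sample was present or used (0 columns).

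Library totals were 15393103 (LNCAP), 15319045 (PC3) and 15878546 (DU145) counts. A count of 0 allows 3 counts, which is 0.192, 0.196 and 0.191 CPM. Intervals and these limits cover counting error only, since they rest on the counts of libraries without replicates. Separately, the data carry no molecular identifiers to remove PCR copies.

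Values are printed in full for ABC genes called 4-fold apart in at least 1 pair and for the 5 with the highest mean TPM, with ranges for the others. Some results of single ABC genes are not reported here, in the text or the plots, though the counts over the family include them. For each list of partners, at most 3 called genes were named, those whose interval lay farthest from 1. The genes, lists and markers were chosen with earlier results of these data known. Proteins were not printed. RefSeq windows (GRCh38.p14) were matched by symbol, taking the window nearest to the annotated start. Alternatives were other scalings, filters, added counts, fold thresholds, FPKM and other tools.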

Additional observations from a re-analysis of the deposited data

How the results depend on the processing

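The number of ABC genes called stayed within 1.5 times its main value under the other scalings (13 for PC3 against LNCAP, 12 for DU145 against LNCAP and 8 for PC3 against DU145), as it did under the other filters and added counts. It moved with FPKM plus 1 in place of counts, to 4, 4 and 1, beside 9.18, 8.61 and 5.53% of all genes. With a fold of 2 in place of 4 it moved to 22 for PC3 against LNCAP and 20 for DU145 against LNCAP, beside 46.2 and 46% of all genes. The class test gave 5 ABC genes with DESeq2 and 0 with edgeR. Adding 1 FPKM pulls genes with low values toward a ratio of 1 by its construction. For single genes, the 33 calls were each recomputed under 5 settings (other scalings, 5 counts added, FPKM plus 0.1), where 156 kept the call, 9 lost it and none reversed. The calls lost were those of ABCA4, ABCB5, ABCC8, ABCC11 and ABCG4, all with 5 counts or 0.1 FPKM added. The other scalings moved log2 ratios little (ABCA1 in PC3 against LNCAP, 4.05 to 4.14), so they could hardly end a call. No paired analysis was possible because each line has 1 library, and all carry replicate number 1. Leaving out a PC3 or DU145 library leaves the class test no residual degrees of freedom, so it was not run. Depth limits ratios that rest on few counts, as for ABCC3 in LNCAP (2 counts) and ABCA12 and ABCG2 in PC3 (4 counts each).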

Other observations

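Loci with ABC names outside the protein-coding genes held few counts. The pseudogene ABCA11P had 33, 41 and 20 counts in the LNCAP, PC3 and DU145 libraries, and ABCA17P had 23, 23 and 13. ABCC13 had 2 counts in PC3 and none elsewhere. The antisense locus ABCC5-AS1 had 2, 1 and 2 counts, and ABCA9-AS1 had none in any library. The pseudogene loci named after ABCB10 and ABCF2 had at most 1 count in any library.

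The ABC genes as a group took 0.29, 0.169 and 0.182% of the counts of the LNCAP, PC3 and DU145 libraries. ABCC4 and ABCC1 stand first and second by TPM in LNCAP, with 22.2 and 12.6% of the ABC sum.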
